A study of Sus scrofa with 2 samples.

Results

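CCL2-high cells were the cultured pig adipose-derived stem cells (ADSCs) with the highest share of CCL2 transcripts among those called non-cycling. Non-cycling here means only that 5 cell cycle genes had no counts. Other cycle genes were still detected in these cells. ADSCs are stromal progenitors cultured from fat. Here they came from about 5 g of chest fat of healthy Bama miniature pigs, were grown for 3 generations within 14 days and were then frozen. The labels give 1 untreated group of 2 libraries, numbered 1 and 2, and give no age for the animals. Nothing in them ties the libraries to different animals or dishes. With the library in the model, the p-values below therefore reflect only how far differences between classes disagreed between these libraries. That disagreement is pooled over genes and may be technical. Each molecule was counted once through its unique molecular identifier (UMI), and each barcode stands for a droplet taken as a cell.

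The pool from which members were drawn held barcodes with at least 5000 UMIs and 0 UMIs of 5 cell cycle genes (TOP2A, CDK1, CCNB1, PLK1 and MKI67). Of 25207 barcodes in all, 21179 had the depth and 10114 belonged to the pool, 4495 in library 1 and 5619 in library 2. CCL2-high cells were the top 5% of the pool by CCL2 UMIs over total UMIs, ranked within each library, which gave 225 and 281 cells, or 506 in all. Members were thus chosen by their measured CCL2 counts. They were set against CCL2-low cells, the lowest 25% of the pool, with 1124 and 1405 cells, or 2529 in all.

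CCL2 is a chemokine, a small secreted protein that draws monocytes through the receptor CCR2. In stromal cells its gene is switched on by inflammatory signals such as interleukin 1 and tumour necrosis factor, which act through the transcription factor NF-κB. NF-κB also turns on its own inhibitors, among them NFKBIA and TNFAIP3, so that its targets and its brakes usually appear together. In fat, CCL2 from stromal cells is known for bringing in macrophages. In RefSeq's annotation of the pig genome Sscrofa11.1, CCL2 lies at chr12:40798109-40800013, beside CCL11 at chr12:40779906-40782862. IL6 lies at chr9:91506421-91510830, and CXCL2 and AMCF-II lie on chromosome 8 at chr8:70157253-70159145 and chr8:70008225-70010360.

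The stromal identity of the cells was checked with 16 stromal and progenitor markers, among them PDGFRA and THY1. Summed over the list, these came to 2419 and 2820 counts per 1000000 UMIs (CPM) in CCL2-high cells of libraries 1 and 2, and to 2333 and 2575 CPM in CCL2-low cells. LEPR and DLK1 of this list had 0 UMIs in CCL2-high cells, and CD55 had 0.483 and 2.08 CPM there. Epithelial markers came to 0 and 0.377 CPM in CCL2-high cells and to 0.21 and 0.809 CPM in CCL2-low cells. The 12 macrophage markers came to 53.8 and 10.0 CPM in CCL2-high cells and to 42.9 and 9.75 CPM in CCL2-low cells. The macrophage genes PTPRC, CD163 and AIF1 had 0 UMIs in CCL2-high cells. ITGAM, an integrin chain of myeloid cells, made up most of that sum in library 1, with 36.4 CPM in CCL2-high cells and 25.1 CPM in CCL2-low cells. In library 2 it was at 1.13 CPM in CCL2-high cells and 0.283 CPM in CCL2-low cells. The lists of 12 lymphocyte, 8 mural, 8 mesothelial and 8 fat cell markers came to 15.2 and 1.89, 23.7 and 36.6, 90.3 and 70.0, and 44.9 and 40.9 CPM in CCL2-high cells, and to 12.6 and 1.01, 29.3 and 47.8, 84.8 and 81.1, and 46.9 and 38.1 CPM in CCL2-low cells. Endothelial markers came to 66.6 and 115 CPM in CCL2-high cells and to 68.8 and 94.2 CPM in CCL2-low cells, with KDR, TIE1 and CLDN5 at 0 in CCL2-high cells. In the test described below, ITGAM (0.66), NOTCH3 (1.78) and CIDEC (2.69) passed as higher in CCL2-high than in CCL2-low cells and ABCC9 (-1.01) and KRT19 (-0.83) as lower, on the log2 scale. NOTCH3 and CIDEC stayed under 3 CPM in every sum. Among alternatives that kept the library in the model and tested the gene, the call was lost in 4 of 12 for ITGAM, 5 of 12 for NOTCH3, 5 of 11 for CIDEC, 5 of 12 for KRT19 and 1 of 13 for ABCC9. Here and below, these alternatives include another seed for ties and a filter on genes and mitochondrial share. Both kept the same cells as the main test, so they could not lose a call. The part of these markers in the differences below was not tested.

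CCL2-high cells were about as deep as CCL2-low cells. They had a median of 17322 UMIs and 4072 genes per cell in library 1 and 16385 UMIs and 4090 genes in library 2, and CCL2-low cells had 16608 UMIs and 4017 genes in library 1 and 16475 UMIs and 4103 genes in library 2. Summed over cells, this gave 4143494 and 5299284 UMIs for CCL2-high cells, and 19081253 and 24719215 UMIs for CCL2-low cells. The 2 libraries shared 46 barcodes, of which 9 lay in the pool of both libraries and 0 among CCL2-high cells. Doublets were not called.

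The ranking gene itself ran as a continuous range and not as a separate group. CCL2 came to 4391 and 3164 CPM in CCL2-high cells of libraries 1 and 2, and to 289 and 26.1 CPM in CCL2-low cells. These values follow from the rule and carry no test. Single CCL2-high cells ranged between 3307 and 9958 CPM in library 1, with a median of 4091 CPM or 75 CCL2 UMIs per cell. In library 2 they ranged between 2169 and 6527 CPM, with a median of 2915 CPM or 51 UMIs. The lowest CCL2-high cells had 3307 CPM (library 1) and 2169 CPM (library 2), and the next pool cells below them had 3303 and 2168 CPM. In each library 132 pool cells lay within 10% of this limit, and 57 and 63 of them were members. CCL2-high cells held 17.1% of the pool's CCL2 UMIs in library 1 and 27.2% in library 2.

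The CCL2-low class held different CCL2 levels in the libraries, as the plot of CCL2 by percentile shows. Of CCL2-low cells 90 had no CCL2 UMI in library 1 (8.01%), against 861 in library 2 (61.3%). The upper limit of the CCL2-low class was 511 CPM (library 1) and 82.2 CPM (library 2). The pool as a whole held 1259 and 585 CPM of CCL2. No cell type that should lack CCL2 was found in these libraries, so the level that free RNA gives could not be read.

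**Figure D1:**
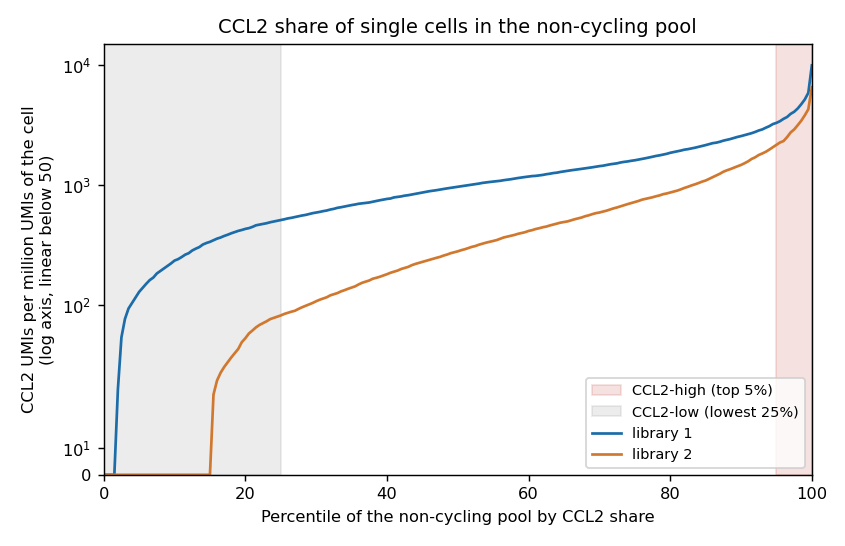
CCL2 CPM of single cells (vertical axis, logarithmic above 50) against the cell's percentile in the non-cycling pool (horizontal axis), one line per library. The red band marks CCL2-high cells, the grey band CCL2-low cells. Both lines climb without a break into the red band, which begins at 3307 CPM (library 1) and 2169 CPM (library 2), and library 2 stays at 0 over most of the grey band.

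CCL2-high cells carried more transcripts of other inflammatory mediators and, above all by count, of the NF-κB system than CCL2-low cells. Counts were summed per library and class and tested with edgeR's quasi-likelihood F test with the library as a block, and p-values were adjusted over all genes by the Benjamini-Hochberg method. A gene passed with an adjusted p under 0.05, a log2 fold change (CCL2-high over CCL2-low) of at least 0.5 in size and the same sign in both libraries. Of 13383 genes tested 282 were higher in CCL2-high cells (2.11%) and 134 were lower (1.0%). The genes of the rule, CCL2 included, were left out of this test. Errors after ± are standard errors of the log2 fold change, worked back from the F statistic. With the library left out of the model 0 genes passed, and DESeq2 passed 97 higher and 31 lower. Without the library, 276 genes leaned higher and 147 lower at an unadjusted p under 0.05. In the 3 inflammatory lists that follow, edgeR put 0 chemokines, 2 cytokine or prostaglandin genes and 0 NF-κB genes lower at an unadjusted p under 0.05.

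Few chemokines other than CCL2 passed. Of 10 tested, 2 were higher in CCL2-high cells (20%, beside 2.11% over all genes) and 0 lower. Of the 10, 8 had a log2 fold change above 0, with a median of 0.54 beside -0.01 over all genes. AMCF-II, a pig CXC chemokine that attracts neutrophils, stood at 176 and 174 CPM in CCL2-high cells of libraries 1 and 2, against 52.9 and 34.1 CPM in CCL2-low cells. Both CCL2-high values lay above both CCL2-low values (log2 fold change 2.08 ± 0.12, adjusted p = 1.92e-06, edgeR). CCL20, the ligand of CCR6, was scarce but higher, with 8.93 and 3.59 CPM in CCL2-high cells against 3.67 and 0.647 CPM in CCL2-low cells (1.70 ± 0.32, adjusted p = 0.0012, edgeR).

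CXCL2, a neutrophil chemokine and a marker used to name these cells, did not pass this test although it was higher in each library. It stood at 533 and 73.2 CPM in CCL2-high cells, against 155 and 10.4 CPM in CCL2-low cells. The log2 fold change was 1.84 in library 1 and 2.83 in library 2, and 2.20 ± 0.42 in the joint fit (adjusted p = 0.377, edgeR). The call turned on the method: DESeq2 gave an adjusted p of 0.000188, and over all alternatives tried the adjusted p ran up to 1.00, without the library in the model. It passed in 6 of 14 alternatives. CCL5, which draws T cells, had 52.1 and 9.81 CPM in CCL2-high cells and 11.6 and 6.63 CPM in CCL2-low cells and did not pass (1.62 ± 0.62, adjusted p = 0.494, edgeR). TNF, IL1B, CXCL9, CXCL10 and CCL8 had 0 UMIs in all 4 sums, which allows up to 0.724 and 0.566 CPM in CCL2-high cells and 0.157 and 0.121 CPM in CCL2-low cells.

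Among cytokines and enzymes of prostaglandin synthesis, 6 of 15 tested genes were higher (40%, beside 2.11% over all genes) and 0 lower (median log2 fold change 0.49). IL6, a cytokine that drives the acute phase response and the other marker in the name, stood at 108 and 29.8 CPM in CCL2-high cells, against 42.3 and 13.1 CPM in CCL2-low cells. Library 1 was higher than library 2 in both classes, and CCL2-high cells were above CCL2-low cells in each library (1.33 ± 0.10, adjusted p = 5.77e-09, edgeR). In the smaller pool with 0 UMIs of all 15 core cycle genes, which left 15 and 24 CCL2-high cells, the IL6 difference was 0.96 and did not pass (adjusted p = 0.306, edgeR). IL1A, an interleukin 1 that cells release when damaged, stood at 80.1 and 19.2 CPM in CCL2-high cells and 22.3 and 4.73 CPM in CCL2-low cells (1.95 ± 0.12, adjusted p = 1.72e-10, edgeR).

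PTGS2, the inducible cyclooxygenase, came to 95.3 and 29.8 CPM in CCL2-high cells and 48.4 and 15.1 CPM in CCL2-low cells, a log2 fold change of 1.02. CSF1, the growth factor of macrophages, came to 98.0 and 73.2 CPM in CCL2-high cells and 49.3 and 43.4 CPM in CCL2-low cells (0.91). PTGS1 and PTGIS, the constitutive cyclooxygenase and prostacyclin synthase, were the other risers, by 0.73 and 0.69. IL33, a nuclear cytokine released on damage, differed little, with 278 and 310 CPM in CCL2-high cells and 271 and 301 CPM in CCL2-low cells (0.07 ± 0.06, adjusted p = 0.637, edgeR). LIF, IL11 and HGF did not pass, with log2 differences of 1.30, -0.05 and -0.13.

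Of the 21 tested subunits, inhibitors and targets of NF-κB, 13 were higher in CCL2-high cells (61.9%, beside 2.11% over all genes) and 0 lower. Their median log2 fold change was 0.68. The number higher was between 10 and 13 in 12 of the 14 alternatives tried. It was 5 of 15 in the pool with 0 UMIs of all 15 core cycle genes and 0 without the library in the model. Another seed for ties and the filter on genes and mitochondrial share kept the same cells, so they repeat the main result. The subunits RELB, NFKB1 and NFKB2 passed and REL and RELA did not. RELB stood at 49.2 and 63.6 CPM in CCL2-high cells, against 25.6 and 21.5 CPM in CCL2-low cells, so that the class ranges did not overlap (1.31 ± 0.12). NFKB1 stood at 65.6 and 76.4 CPM in CCL2-high cells and 31.3 and 34.2 CPM in CCL2-low cells (1.15 ± 0.09).

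Inhibitors of NF-κB passed as well. TNFAIP3, a ubiquitin-editing enzyme that shuts NF-κB signalling off, reached 96.8 and 59.8 CPM in CCL2-high cells, against 28.4 and 13.3 CPM in CCL2-low cells (1.99 ± 0.11, adjusted p = 5.26e-12, edgeR). Both CCL2-high values lay above both CCL2-low values. NFKBIA, which holds NF-κB in the cytoplasm, stood at 176 and 87.7 CPM in CCL2-high cells and 88.4 and 31.0 CPM in CCL2-low cells (1.26 ± 0.10, adjusted p = 4.24e-08, edgeR). ZC3H12A, a ribonuclease that degrades cytokine messages such as that of IL6, was scarcer, at 7.48 and 7.55 CPM in CCL2-high cells and 3.25 and 4.09 CPM in CCL2-low cells (1.06 ± 0.25). NFKBIE and TNIP1 passed with log2 fold changes of 0.89 and 0.65. NFKBIZ and BIRC3, members of the same list that are not counted here as inhibitors, passed with 0.69 and 0.84.

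Among targets with other roles, SOD2, the superoxide dismutase of mitochondria, stood at 104 and 89.3 CPM in CCL2-high cells and 52.0 and 33.5 CPM in CCL2-low cells (1.24 ± 0.10). ICAM1, an adhesion molecule for leukocytes, stood at 109 CPM in CCL2-high cells of both libraries and at 78.6 and 61.7 CPM in CCL2-low cells (0.68 ± 0.09). VCAM1, the adhesion molecule often named with it, had 61.1 and 48.5 CPM in CCL2-high cells and 39.9 and 48.2 CPM in CCL2-low cells and did not pass (0.33 ± 0.13, adjusted p = 0.219, edgeR). The plot of the 3 inflammatory lists gives each gene's difference in both libraries.

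**Figure D2:**
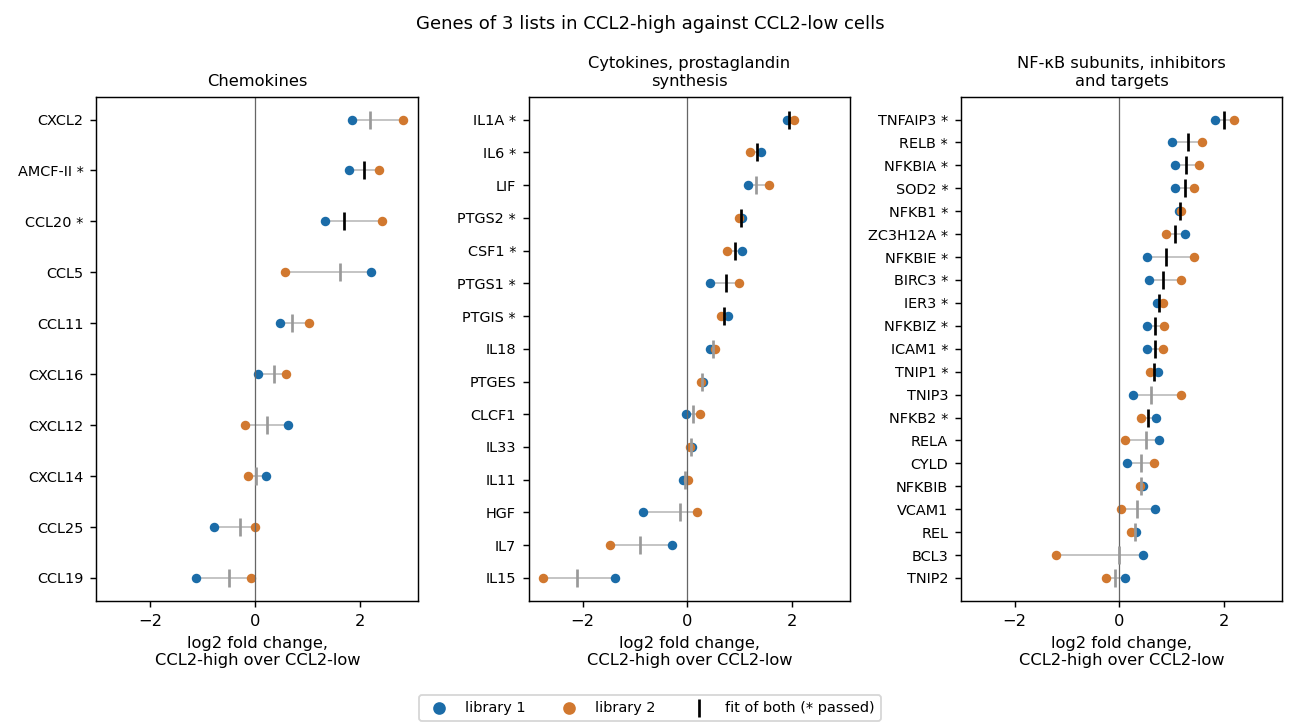
Log2 fold change of CCL2-high over CCL2-low cells (horizontal axes) for the tested genes of 3 lists (rows), in library 1 (blue) and library 2 (orange). The upright mark is the joint fit, black with an asterisk where the gene passed. In the NF-κB list 13 of 21 genes passed and all of these lay right of 0 in both libraries, while CXCL2 lay right of 0 in both and did not pass.

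Of 23 tested receptors for these signals 2 were higher (8.70%, beside 2.11% over all genes) and 0 lower, with a median of 0.15. IL1RL1, the receptor of IL33, stood at 13.5 and 9.44 CPM in CCL2-high cells, against 4.09 and 2.71 CPM in CCL2-low cells (1.80 ± 0.22, adjusted p = 7.98e-06, edgeR). IFNGR2, a chain of the interferon gamma receptor, was higher by 0.66 ± 0.09. IL1R1 had 186 and 64.9 CPM in CCL2-high cells and 146 and 60.0 CPM in CCL2-low cells, and its log2 difference of 0.29 stayed below the fold required. TNFRSF1A, with 60.1 and 65.9 CPM in CCL2-high cells and 68.8 and 71.4 CPM in CCL2-low cells, did not pass.

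The acute phase and complement list did not move as a whole, with a median of -0.01. Of 14 tested genes 2 were higher (14.3%, beside 2.11% over all genes) and 1 was lower (7.14%, beside 1.0%). PTX3, a secreted pattern recognition protein, stood at 159 and 133 CPM in CCL2-high cells and 82.9 and 89.3 CPM in CCL2-low cells (0.79 ± 0.09, adjusted p = 6.73e-06, edgeR). LCN2, an iron-binding lipocalin that is often induced by NF-κB, was lower, at 19.8 and 39.3 CPM in CCL2-high cells against 34.9 and 51.7 CPM in CCL2-low cells (-0.52 ± 0.12, adjusted p = 0.00579, edgeR). The LCN2 fall did not pass with DESeq2 (-0.55) or among cells of at least 10000 UMIs (-0.49), and was -0.30 without the 10% of cells with the most UMIs. Over the 5 bins by CCL2 share described below, LCN2 ran through 34.9, 28.8, 29.9, 27.3 and 19.8 CPM in library 1. In library 2 it ran through 51.7, 36.0, 27.9, 31.2 and 39.3 CPM, so CCL2-high cells lay below the lowest bin only. Against the rest of the pool 0 of 17 tested genes of this list passed as lower. CFD, complement factor D, passed at 0.52 and lost the call in 7 of 13 alternatives that kept the library in the model.

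Of 20 immediate early genes 4 were higher (20%, beside 2.11% over all genes) and 0 lower (median 0.25). FOSL1, an AP-1 subunit, stood at 58.9 and 44.9 CPM in CCL2-high cells and 31.5 and 17.1 CPM in CCL2-low cells (1.18 ± 0.12). ZFP36, a protein that destabilises cytokine messages, stood at 202 and 61.1 CPM in CCL2-high cells and 103 and 36.4 CPM in CCL2-low cells (0.91 ± 0.09). BTG2 and ATF3 were higher by 0.77 and 0.51, and ATF3 lost the call in 7 of 13 alternatives that kept the library in the model. FOS, the member most used as a sign of stress during cell handling, had 191 and 129 CPM in CCL2-high cells and 171 and 167 CPM in CCL2-low cells (-0.07, adjusted p = 0.875, edgeR). EGR1 did not pass either (0.26 ± 0.08).

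Of 23 interferon response genes 5 were higher (21.7%, beside 2.11% over all genes) and 0 lower (median 0.41). IRF1, a transcription factor induced by interferon gamma and by NF-κB, reached 69.0 and 21.9 CPM in CCL2-high cells, against 21.9 and 8.05 CPM in CCL2-low cells (1.62 ± 0.12, adjusted p = 5.77e-09, edgeR). ISG15, a ubiquitin-like protein, stood at 63.0 and 65.9 CPM in CCL2-high cells and 30.8 and 19.8 CPM in CCL2-low cells (1.43 ± 0.13). Over the 5 bins by CCL2 share described below, ISG15 ran through 30.8, 39.9, 39.9, 42.4 and 63.0 CPM in library 1. In library 2 it ran through 19.8, 35.1, 25.5, 21.2 and 65.9 CPM, with no steady climb below the top bin. IRF1 climbed at each step in both libraries. IFI6 was higher by 0.63 ± 0.10. IFIT1 and IFIT2 passed at 1.93 and 1.40 with under 8 CPM in every sum, and IFIT1 was level in library 1, with 1.21 CPM in both classes. The call was lost in 5 of 12 alternatives that kept the library in the model for IFIT1 and in 4 of 12 for IFIT2. In library 2 IFIT1 ran through 1.09, 0.901, 0.917, 0.622 and 7.36 CPM over the bins. RSAD2, too scarce for the test, had 20 UMIs in CCL2-high cells of library 2 and 0 in the other sums. How interferon transcripts were spread over single CCL2-high cells was not tested. IRF9 and OAS1, which respond broadly to interferon, did not pass, with log2 differences of -0.08 and 0.12.

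Contractile genes and targets of TGF-beta split. Of 20 tested, 4 were higher (20%, beside 2.11% over all genes) and 1 lower (5%, beside 1.0%), with a median of 0.31. TAGLN, an actin-binding protein of smooth muscle and myofibroblasts, stood at 517 and 518 CPM in CCL2-high cells, against 234 and 316 CPM in CCL2-low cells (0.96 ± 0.10, adjusted p = 0.000744, edgeR). MYL9 and THBS1 were each higher by 0.80. ACTA2, the actin that defines myofibroblasts, had 196 and 215 CPM in CCL2-high cells and 78.7 and 165 CPM in CCL2-low cells and did not pass (0.86 ± 0.45, adjusted p = 0.651, edgeR). TGFB2, a TGF-beta ligand, was lower, at 17.4 and 5.85 CPM in CCL2-high cells and 25.5 and 13.5 CPM in CCL2-low cells (-0.76 ± 0.17), but its difference was 0.11 in the pool with 0 UMIs of 15 core cycle genes.

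Collagen and matrix genes leaned lower by small amounts. Of 19 tested, 0 were higher and 1 was lower (5.26%, beside 1.0% over all genes). Of the 19, 14 had a log2 fold change below 0 (median -0.19). COL6A3 passed, with 85.2 and 123 CPM in CCL2-high cells and 122 and 180 CPM in CCL2-low cells (-0.50 ± 0.08, adjusted p = 0.00014, edgeR). It stood at the fold limit and lost the call in 6 of the 13 alternatives that kept the library in the model. COL3A1, a chain of type III collagen, had 930 and 1528 CPM in CCL2-high cells and 1282 and 2065 CPM in CCL2-low cells, a difference of -0.41 ± 0.06 below the fold required. POSTN, a matrix protein induced by TGF-beta, had a difference of -0.47 ± 0.06. Of 16 genes of matrix turnover 1 was higher (6.25%, beside 2.11% over all genes) and 0 lower. This was ADAMTS9 (0.57), which lost the call in 6 of the same 13 alternatives. CEMIP, which degrades hyaluronan, had 219 and 333 CPM in CCL2-high cells and 77.1 and 237 CPM in CCL2-low cells and did not pass (0.99 ± 0.50, adjusted p = 0.643, edgeR).

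Of 13 stromal and progenitor genes 2 were higher (15.4%) and 0 lower. Of 11 adipogenic genes 1 was higher and 1 lower (9.09% each), and of 20 growth factors 2 were higher (10%) and 1 lower (5%), beside 2.11% higher and 1.0% lower over all genes. GREM1, a secreted antagonist of bone morphogenetic proteins, stood at 46.6 and 41.7 CPM in CCL2-high cells and 20.1 and 28.0 CPM in CCL2-low cells (0.90 ± 0.14). ZNF521, a repressor of fat cell formation, was lower, at 155 and 195 CPM in CCL2-high cells against 263 and 310 CPM in CCL2-low cells (-0.68 ± 0.07, adjusted p = 2.55e-07, edgeR). PPARG, the master regulator of fat cell formation, passed at 0.53 ± 0.13, but its difference was -0.39 in the pool with 0 UMIs of 15 core cycle genes. FGF2 stood at 69.0 and 58.5 CPM in CCL2-high cells and 39.9 and 31.1 CPM in CCL2-low cells (0.89 ± 0.10). IGF1 was lower (-1.92 ± 0.49), with under 4 CPM in every sum.

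Of 16 genes of senescence and the p53 response 3 were higher (18.75%, beside 2.11% over all genes) and 1 lower (6.25%, beside 1.0%). Their median was 0.15. GDF15, a secreted stress signal, stood at 14.0 and 5.47 CPM in CCL2-high cells, against 2.83 and 2.22 CPM in CCL2-low cells (1.90 ± 0.27). CDKN1A, the p53 target that halts the cycle, stood at 111 and 94.9 CPM in CCL2-high cells and 76.9 and 64.6 CPM in CCL2-low cells (0.58 ± 0.08). MDM2 was higher by 0.56 and IGFBP5 lower by a log2 fold change of -0.78. Of 17 genes of the unfolded protein response, 19 of glycolysis and hypoxia and 14 of cholesterol synthesis, 0 passed in either direction with edgeR and 0 with DESeq2. At an unadjusted p under 0.05, edgeR put 0 genes of the unfolded protein response higher and 2 lower, 6 of glycolysis and hypoxia higher and 1 lower, and 0 of cholesterol synthesis higher and 2 lower. Of 13 genes of the response to oxidants and metals 1 was higher (7.69%, beside 2.11% over all genes) and 0 lower. It was MT1A, at 2.17 with under 7 CPM in every sum.

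Cycle genes outside the rule went in both directions, with log2 medians of -0.39 for 10 core cycle genes and 0.18 for 20 genes of S phase. The 10 core cycle genes that the rule did not use came to 195 and 194 CPM in CCL2-high cells and to 255 and 226 CPM in CCL2-low cells. In cells with UMIs of the rule's cycle genes they came to 1591 and 1709 CPM. Of these 10 genes BIRC5, which guards chromosome segregation and survival, was lower (-0.56 ± 0.10), and its call was lost with DESeq2 and in 3 other alternatives that kept the library in the model. The S phase genes came to 382 and 369 CPM in CCL2-high cells and to 390 and 328 CPM in CCL2-low cells, and 15 of 20 had a log2 fold change above 0. In cells with UMIs of the rule's cycle genes the S phase genes came to 876 and 860 CPM. Of these S phase genes 1 passed as higher (5%, beside 2.11% over all genes) and 0 as lower. It was CLSPN, at 0.84 with under 9 CPM in every sum. Its call was lost in 4 of the 12 alternatives that kept the library in the model and tested it.

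Outside the lists, the rule for naming took the 10 genes with the largest rises and the 10 with the largest falls. The rises included CCND1, cyclin D1 of the G1 phase, at 275 and 334 CPM in CCL2-high cells against 113 and 104 CPM in CCL2-low cells (1.52 ± 0.08, adjusted p = 2.22e-11, edgeR). The metallothionein gene MT-2B stood at 276 and 246 CPM in CCL2-high cells and 111 and 97.3 CPM in CCL2-low cells (1.37 ± 0.07). For both genes all CCL2-high values lay above all CCL2-low values. ESM1, a proteoglycan known from endothelium, CRYAB, a small heat shock protein, and SFRP1, a Wnt antagonist, rose by 1.89, 1.70 and 1.27. PLXNA2, RASSF5 and COL4A3 rose by 1.19, 1.33 and 1.12, and CYP2C91, which RefSeq lists as a transcribed pseudogene, by 1.25. KCNQ5, a potassium channel, rose by 1.59, but its difference was -0.03 in the pool with 0 UMIs of 15 core cycle genes.

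The falls included a pair of retinaldehyde dehydrogenases, enzymes that make retinoic acid. ALDH1A3 stood at 5.79 and 8.87 CPM in CCL2-high cells, against 21.2 and 33.3 CPM in CCL2-low cells (-1.87 ± 0.16, adjusted p = 3.48e-08, edgeR). ALDH1A1 stood at 22.0 and 15.7 CPM in CCL2-high cells and 54.9 and 57.0 CPM in CCL2-low cells (-1.56 ± 0.13, adjusted p = 1.95e-08, edgeR). In both genes the classes did not overlap. BMPER, a secreted modulator of bone morphogenetic proteins, stood at 13.5 and 29.8 CPM in CCL2-high cells and 34.3 and 72.0 CPM in CCL2-low cells (-1.27 ± 0.12). The transcription factor SOX6 and the R-spondin receptor LGR4 fell by 1.20 and 0.98 on the log2 scale. MLLT3, DLG2, TNFRSF8, SVIL and the mitotic kinase PBK fell by 1.37, 1.26, 1.03, 1.02 and 0.95 on that scale.

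Many of these genes moved stepwise with CCL2. The pool was cut into 5 bins by CCL2 share, and 20 of the 50 risers named above or by the same rule rose at each step in both libraries, while 10 of 19 fallers fell at each step. This is a description, since the outer bins chose the genes. CXCL2 ran through 155, 263, 321, 432 and 533 CPM in library 1 and through 10.4, 23.0, 33.6, 52.5 and 73.2 CPM in library 2. TNFAIP3 ran through 28.4, 41.8, 57.4, 70.8 and 96.8 CPM in library 1 and 13.3, 23.1, 35.7, 40.6 and 59.8 CPM in library 2. ALDH1A1 ran the other way, through 54.9, 48.9, 39.4, 32.2 and 22.0 CPM in library 1. IL33 showed no such order, with 271, 295, 274, 278 and 278 CPM in library 1 and 301, 306, 321, 324 and 310 CPM in library 2. Of the NF-κB list, TNFAIP3, RELB, NFKBIA and SOD2 climbed at each step in both libraries. VCAM1 did not, with 48.2, 50.3, 42.5, 42.3 and 48.5 CPM in library 2. The other genes of that list were not followed over bins.

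**Figure D3:**
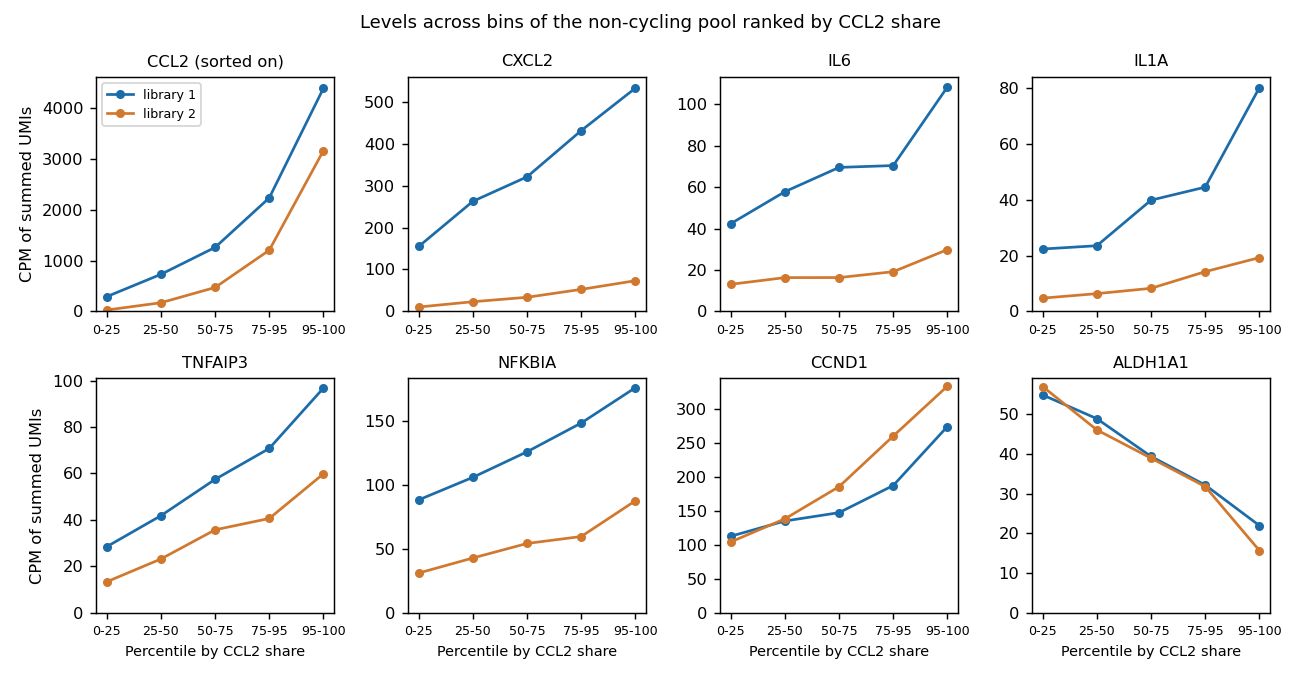
CPM of summed UMIs (vertical axes) in 5 bins of the non-cycling pool, low to high by CCL2 share (horizontal axes, percentiles), for library 1 (blue) and library 2 (orange). CXCL2, IL1A, TNFAIP3, NFKBIA and CCND1 climb at each step in both libraries and ALDH1A1 declines at each step. Library 1 lies above library 2 for CXCL2 and IL6 in every bin.

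The same mediators were not at the same level in the libraries. IL6 stood at 108 CPM in CCL2-high cells of library 1 (Poisson 95% interval 98.6 to 119) and at 29.8 CPM in those of library 2 (25.3 to 34.8). IER3, an early response gene of the NF-κB list, stood at 637 CPM (613 to 662) and 92.3 CPM (84.3 to 101). CXCL2 in CCL2-low cells of library 1, at 155 CPM, exceeded CXCL2 in CCL2-high cells of library 2, at 73.2 CPM. The intervals cover counting error only, and with 1 library on each side this difference has no test.

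CCL2-high cells varied among themselves in the other mediators. CXCL2 had a median of 259 CPM over single CCL2-high cells of library 1, with quartiles at 93.2 and 693 CPM and a maximum of 3100 CPM. In library 2 its median was 0, and 97 of 281 CCL2-high cells had a CXCL2 UMI (34.5%), against 113 of 1405 CCL2-low cells (8.04%). After each cell was thinned to 5000 UMIs these shares were 16.4% and 3.77%. IL6 had a median of 43.5 CPM in library 1 and 0 in library 2, where 31.0% of CCL2-high cells and 17.7% of CCL2-low cells had an IL6 UMI, or 12.1% and 6.33% after thinning. Free RNA can give such UMIs, and its level was not known here.

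The top 5% of cells by CCL2 were for the most part not the top 5% by the other marker genes. If rankings were unrelated, 5% of CCL2-high cells would also be in another gene's top 5%. For CXCL2 this held for 29 of 225 cells in library 1 and 31 of 281 in library 2, and for IL6 the shares were 10.7% and 11.4%. For NFKBIA the share was 14.7% and 14.2%, and for CEMIP 11.6% and 8.19%. For VCAM1 it was 8.44% and 6.41%, and for IL33 6.67% and 5.69%. These shares rest on sparse counts and are given as a description.

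Against the rest of the pool, which holds 4270 and 5338 cells of intermediate and low CCL2, fewer genes passed. Of 16091 genes tested 145 were higher in CCL2-high cells (0.901%) and 55 lower (0.342%). All comparisons in the pool share the CCL2-high cells, so each gives its own values and none is support for another. CXCL2 passed here, with 533 and 73.2 CPM in CCL2-high cells against 290 and 29.4 CPM in the rest (1.05 ± 0.07, adjusted p = 1.89e-29, edgeR). IL6 had 108 and 29.8 CPM in CCL2-high cells and 60.1 and 16.1 CPM in the rest (0.88 ± 0.09, adjusted p = 5.19e-17, edgeR). In the NF-κB list 8 of 22 genes were higher and 0 lower, and in the collagen and matrix list 0 of 20 passed in either direction, with 0 higher and 7 lower at an unadjusted p under 0.05 in edgeR. ACTA2 also passed here, with 196 and 215 CPM in CCL2-high cells and 97.2 and 148 CPM in the rest (0.77 ± 0.09).

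VCAM1-high cells, the top 5% of the same pool by VCAM1, stood at about the IL6 level of CCL2-high cells and differed from them in both directions in other mediators. With the cells common to both classes left out, 206 and 263 cells remained on each side. All VCAM1-high cells had medians of 17858 and 20971 UMIs, against 17322 and 16385 UMIs in CCL2-high cells. The part of depth in the differences was not tested. Of 11330 genes tested 229 were higher in CCL2-high cells (2.02%) and 169 lower (1.49%). IL6 had 103 and 26.3 CPM in CCL2-high cells and 103 and 27.3 CPM in VCAM1-high cells, a log2 difference of -0.00. The standard error times the normal multiplier for 95% gave a range of -0.21 to 0.21, which ignores the few degrees of freedom. CXCL2 was higher in CCL2-high cells, at 502 and 66.0 CPM against 293 and 26.3 CPM in VCAM1-high cells (0.96 ± 0.10, adjusted p = 0.000142, edgeR). TNFAIP3 and IL1A were higher by 1.02 and 1.00, while SOD2 and PTX3 did not pass (0.35 and 0.07). In the NF-κB list 3 of 19 were higher and 0 lower. Of 10 chemokines 3 were higher and 2 lower in CCL2-high cells (median -0.11). CXCL14, a chemokine made by resting stroma and epithelium, was lower, at 28.9 and 36.2 CPM in CCL2-high cells and 49.5 and 74.96 CPM in VCAM1-high cells (-0.94 ± 0.12), and the scarcer CCL19 was lower too. Of 11 acute phase and complement genes 1 was higher and 4 lower (median -0.42): LCN2, the complement proteases C1S and C1R, and SERPING1, the inhibitor of those proteases, at -0.80, -0.88, -0.71 and -0.71.

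Collagen and matrix genes were lower in CCL2-high than in VCAM1-high cells. Of 19 collagen and matrix genes 0 were higher and 7 lower in CCL2-high cells (36.8%, beside 1.49% over all genes). Among the 7 were COL1A2, COL3A1 and DCN at -0.54, -0.78 and -0.61. COL3A1 had 899 and 1499 CPM in CCL2-high cells and 1605 and 2476 CPM in VCAM1-high cells. ALDH1A3 was lower by a log2 fold change of -3.37, with 2.92 and 8.89 CPM in CCL2-high cells and 34.5 and 87.9 CPM in VCAM1-high cells. CCND1 was higher by 1.81, with 290 and 350 CPM in CCL2-high cells and 83.5 and 99.3 CPM in VCAM1-high cells. Of 18 genes of S phase 7 were higher (38.9%, beside 2.02% over all genes) and 0 lower, among them PCNA at 0.79 and E2F1 at 1.57. The S phase genes came to 313 and 251 CPM in all VCAM1-high cells and to 394 and 360 CPM in the pool. PPARG was lower in CCL2-high cells (-0.75 ± 0.13), the opposite of its sign against CCL2-low cells.

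IL33-high cells, the top 5% by IL33, were below CCL2-high cells in inflammatory, contractile, collagen and stromal progenitor genes that passed. After cells in both classes were left out, 210 and 265 cells remained on each side. All IL33-high cells had medians of 16178 and 13259 UMIs, against 17322 and 16385 UMIs in CCL2-high cells. The part of depth was not tested here either. Of 11315 genes tested 369 were higher in CCL2-high cells (3.26%) and 162 lower (1.43%). IL6 had 113 and 30.1 CPM in CCL2-high cells and 46.6 and 9.60 CPM in IL33-high cells (1.49 ± 0.16, adjusted p = 5.56e-07, edgeR). In the NF-κB list 10 of 19 were higher and 0 lower. In the contractile and TGF-beta list 10 of 17 were higher and 1 lower, with TAGLN at 534 and 529 CPM in CCL2-high cells and 169 and 149 CPM in IL33-high cells (1.83 ± 0.10). LCN2 was higher by 2.74, with 21.1 and 40.7 CPM in CCL2-high cells and 2.86 and 6.96 CPM in IL33-high cells, the opposite of its sign against CCL2-low cells. Of 19 collagen and matrix genes 8 were higher in CCL2-high cells and 0 lower (median 0.28), so that the lower collagen values against CCL2-low and VCAM1-high cells did not extend to this comparison. COL1A1, a chain of type I collagen, had 1120.1 and 1585 CPM in CCL2-high cells and 900.1 and 1083 CPM in IL33-high cells (0.52 ± 0.08). Of 12 stromal and progenitor genes 5 were higher and 0 lower, among them SFRP2, a secreted Wnt modulator, at 0.86 ± 0.09.

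Replication genes ran lower in CCL2-high than in IL33-high cells. The S phase genes came to 605 and 537 CPM in all IL33-high cells. They came to 382 and 369 CPM in CCL2-high cells, near the 394 and 360 CPM of the pool. Of 18 genes of S phase 0 were higher and 6 lower (33.3%, beside 1.43% over all genes). Among the lower genes was MCM6, with 17.2 and 28.3 CPM in CCL2-high cells and 41.4 and 48.7 CPM in IL33-high cells (-0.90 ± 0.17). CCND1 and MT-2B, which separated CCL2-high from CCL2-low cells, did not pass here (0.36 ± 0.10 and 0.01 ± 0.10). CCL2 itself stood at 1404 and 631 CPM in all VCAM1-high cells and at 1194 and 539 CPM in all IL33-high cells, near the level of the pool. The plot of 5 comparisons sets the named genes side by side.

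**Figure D4:**
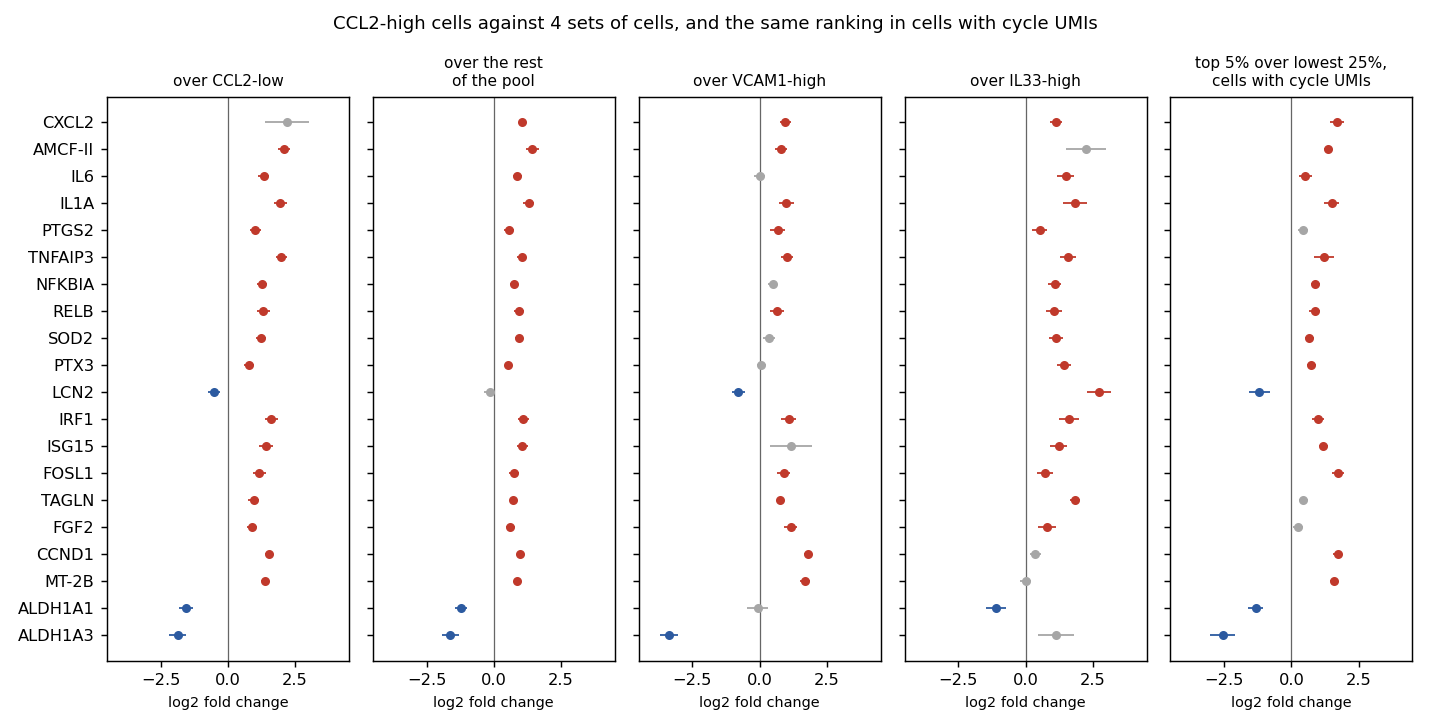
Log2 fold change for 20 genes (rows) in 5 comparisons (panels), CCL2-high over the set named above each panel. The last panel shows top over lowest CCL2 among cells with cycle UMIs. Bars are the standard error times the normal multiplier for 95%, which ignores the few degrees of freedom, so they are too narrow as 95% intervals. A bar clear of 0 does not mean that a gene passed, as for CXCL2 in the first panel. Red points passed as higher, blue points as lower, and grey points did not pass. CXCL2 is grey in the first panel only, IL6 is at 0 against VCAM1-high cells, and LCN2 changes sides between panels.

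The same ranking was applied to cells that the rule did not use. Among barcodes of at least 5000 UMIs with UMIs of the 5 cycle genes, the top 5% by CCL2 held 254 and 299 cells and the lowest 25% held 1272 and 1495 cells. Their median depth was 26023.5 and 23934 UMIs in the top and 21399 and 20202 UMIs in the lowest cells. Of 14088 genes tested 360 were higher in the top cells (2.56%) and 269 lower (1.91%). Of the genes called in the pool, 167 passed in the same direction here, which is 40.1% of the 416 pool calls and 26.6% of the 629 calls among these cells, and 0 passed in the opposite direction. The cells differ from those of the pool, but the libraries are the same.

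CXCL2 passed among these cells, with 404 and 62.5 CPM in the top and 154 and 14.7 CPM in the lowest cells (1.70 ± 0.13, adjusted p = 0.000547, edgeR). AMCF-II, TNFAIP3, NFKBIA and RELB passed at 1.36, 1.21, 0.89 and 0.86. IL1A also passed, with 38.4 and 8.76 CPM in the top and 13.1 and 3.71 CPM in the lowest cells. In the NF-κB list 6 of 22 genes were higher (27.3%, beside 2.56% over all genes) and 0 lower. CCND1 was higher by 1.72 and MT-2B by 1.57, and ALDH1A3 and ALDH1A1 were lower by log2 fold changes of -2.55 and -1.33. PTGS2, TAGLN, MYL9, FGF2 and CDKN1A, which passed in the pool, did not pass here, with differences of 0.43, 0.44, 0.41, 0.25 and -0.10. Whether those differ between the kinds of cell was tested with an interaction term, which passed for 36 of 14149 genes (0.254%). Of those 5 genes FGF2 passed (adjusted p = 0.0445, edgeR). PTGS2, TAGLN, MYL9 and CDKN1A did not, with adjusted p-values of 0.0975, 0.555, 0.713 and 0.0746 from edgeR.

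IL6 differed less with CCL2 in the cells with cycle UMIs, where it had 45.6 and 12.7 CPM in the top and 30.3 and 10.6 CPM in the lowest cells (0.51 ± 0.12). The difference between the kinds of cell was 0.81 ± 0.15 (adjusted p = 0.0317, edgeR). For CXCL2 it was 0.48 ± 0.54 (adjusted p = 0.902, edgeR) and for TNFAIP3 0.78 ± 0.30 (adjusted p = 0.549, edgeR), which do not show that the kinds of cell act alike. Of 19 collagen and matrix genes 0 were higher and 7 lower in the top cells (36.8%, beside 1.91% over all genes). Of 20 genes of S phase 10 were higher (50%, beside 2.56%) and 0 lower, PCNA among them at 0.67 ± 0.07. ACTA2 was lower in the top cells (-0.66 ± 0.08), with 20.8 and 60.0 CPM against 35.4 and 93.9 CPM in the lowest cells.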

How the data were processed

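The deposited matrices of both libraries hold raw UMI counts, as whole numbers, for every pair of gene and barcode. Cell Ranger 7.0.0 made them per the file headers. The submitters' processing notes list Cell Ranger 7.00 and Sscrofa11.1. Neither the annotation nor the way cells were called is stated there. The files name 28155 genes, and 522 of them with a duplicated symbol were kept under their identifiers. Samples are the libraries as numbered in the titles, and the library is the replicate.

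For each library, the UMIs of a class of cells were added up and fitted with edgeR 4.0.16 in R 4.3.3 (TMM, filterByExpr, robust quasi-likelihood F test, library as a block because both classes come from the same library). Each gene has 1 residual degree of freedom, so the spread is pooled over genes and small p-values rest on that pooling. Differences from the gene means ran together in sums of the same library (r = 0.761 over 13383 genes). CPM are counts over the summed UMIs. Cells tied at a class limit were ordered by a seeded random number. Poisson intervals and floors (3 UMIs) cover counting error only. Ranges of log2 differences, in the text and as bars in the plot of 5 comparisons, use a normal multiplier of the standard error. They are therefore too narrow as 95% intervals, and calls rest on the F test and not on them.

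On data simulated from CCL2-high against CCL2-low cells, with 13435 genes, 32% of genes changed 1.5-fold, 81.6% of those changed 2-fold, 100% of those changed 4-fold, 76% of those changed 0.5-fold and 0.0604% of unchanged genes were called. Every gene was drawn independently at a dispersion (spread beyond counting error) of 0.01, while the fit to the real sums had a common dispersion of 0.00352. Real genes differ in how far the libraries disagree, so these rates hold for the simulated setting only. The members and the 27 gene lists were chosen with earlier results of these data known. Named genes are CXCL2 and IL6, up to 4 called genes in each direction per list, and 10 rises and 10 falls outside the lists at 10 CPM or more, without placeholder names, which gave 70; other list members named for context did not come from this rule. Alternatives, with DESeq2 1.42.0 among them, are given in the closing section, and the interaction term was added after seeing the data. A doublet caller was not run. Some named genes are not reported here.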

Additional observations from a re-analysis of the deposited data

Results flagged for a closer look

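The difference between CCL2 top and lowest cells was not the same in the non-cycling pool and in cells with cycle UMIs for 3 of the genes named by rule, by the interaction term in edgeR. COL3A1 and C1S, given above for context only, also passed. Their log2 difference in the pool minus that in cells with cycle UMIs was 0.38 ± 0.07 (adjusted p = 0.0347) and 0.70 ± 0.12 (adjusted p = 0.0189). For IL6 the log2 difference in the pool exceeded that in cells with cycle UMIs by 0.81 ± 0.15 (adjusted p = 0.0317). IL6 was at 108 and 29.8 CPM in CCL2-high cells of the pool against 42.3 and 13.1 CPM in CCL2-low cells, and at 45.6 and 12.7 CPM in the top cells with cycle UMIs against 30.3 and 10.6 CPM in the lowest. For FGF2 the excess was 0.63 ± 0.13 (adjusted p = 0.0445). For PBK it was -0.98 ± 0.17 (adjusted p = 0.0183): PBK was at 9.41 and 8.87 CPM in CCL2-high cells against 21.3 and 15.4 CPM in CCL2-low cells, and at 83.5 and 71.3 CPM in the top cells with cycle UMIs against 86.5 and 69.7 CPM in the lowest.

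CCL2 was also present in barcodes under 5000 UMIs, which entered no comparison. It came to 1088 CPM over 2670 such barcodes of library 1 (Poisson 95% interval 1058 to 1119) and to 527 CPM over 1358 of library 2 (496 to 559). In the pool it came to 1259 and 585 CPM.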

How the results depend on the processing

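Without the replicate block for the library 0 genes passed in either direction in any of the 5 comparisons, with 276 higher and 147 lower at an unadjusted p under 0.05 in CCL2-high against CCL2-low cells, 164 and 107 against the rest of the pool, 309 and 177 against VCAM1-high cells, 437 and 234 against IL33-high cells, and 501 and 329 outside the pool. The DESeq2 Wald test passed 97 higher and 31 lower, 60 and 8, 54 and 57, 122 and 29, and 171 and 104 in the same order. In CCL2-high against CCL2-low cells, total count scaling gave 165 higher and 87 lower, and 0 UMIs of 15 core cycle genes gave 27 and 25 from 15 and 24 CCL2-high cells. Outside the pool, no filter on low counts gave 465 lower. All other counts over all genes stayed within 1.5 times those reported. Counts of single lists moved more. Over the alternatives that kept the block, the number higher in CCL2-high against CCL2-low cells ran between 2 and 4 for chemokines, 1 and 7 for cytokines and prostaglandin genes, 0 and 7 for interferon genes, 0 and 6 for contractile and for S phase genes, 0 and 4 for growth factors, 0 and 3 for senescence and for acute phase genes, and 0 and 2 for matrix turnover, receptors, progenitor genes and glycolysis, and the number lower ran between 0 and 2 for collagen genes. With 0 UMIs of 15 core cycle genes TGFB2 (0.11), PPARG (-0.39) and KCNQ5 (-0.029) changed sign. That pool also held fewer cells, and the cause of the changes was not tested.

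Of the 69 named genes that passed, 11 passed in all 13 alternatives that kept the block (AMCF-II, IL1A, TNFAIP3, RELB, NFKBIA, SOD2, ZFP36, ESM1, CRYAB, CCND1 and BMPER), and 4 passed in all in which they were tested (RASSF5, SFRP1, CYP2C91 and MLLT3). Another seed for ties kept the same cells as the main test, and so did leaving out cells under 1000 genes or over 15% mitochondrial UMIs. Those alternatives could not lose a call, so they add nothing to the counts of alternatives passed. Leaving out a library leaves no residual degrees of freedom, so it gives values with no test.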
